A study of Rattus norvegicus with 30 samples.

Results

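The collagens, laminins, nidogens, fibronectin, tenascins and matrix proteoglycans that the arrays carry were followed in rat sciatic nerve (SN) and dorsal root ganglia (DRG) for 14 d after nerve resection. Members were the probes whose gene name on the array is that of a collagen chain, a laminin chain, Nid1, Nid2, Fn1, Tnc, Tnr, Hspg2, Bcan, Ncan, Vcan, Dcn, Lum, Bgn or Fmod. This gave 91 probes for 57 genes, of 41012 probes on the array. There were 34 collagen genes, 11 laminin genes and 12 others. No probe carried the name Hspg2 or Col12a1.

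Adult male Sprague-Dawley rats had a segment of the left sciatic nerve resected at mid-thigh, and the ganglia of lumbar levels that feed it and the nerve stump proximal to the gap were collected at 0, 1, 4, 7 and 14 d. Each of the 10 groups of tissue and day held 3 single-colour (Cy3) arrays of 60-base probes, 30 arrays in all. All groups were of this strain and sex, and the later days followed this operation. The 0 d groups, the control in the paper, served as the reference and are called uninjured here. The paper describes the operation for each animal and does not say whether 0 d rats were treated otherwise. The labels do not say which rats an array holds, so p-values measure the spread between these arrays, and their number limits the precision. Levels are normalized signals, that is log2 intensity minus the array's 75th percentile, and differences are log2 changes with their standard errors. A probe entered the test of a tissue if at least 1 day had it well above background on all its 3 arrays, which held for 88 member probes in SN and 87 in DRG, and it was called at an adjusted p under 0.05 (limma, Benjamini-Hochberg over all tested probes) and a fold above 2. Where a gene had several probes (25 genes), it stands by its brightest.

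The extracellular matrix of a nerve has a fibrous part and a sheet-like part. Fibrillar collagens such as types I and III form the cables of the epineurium and endoneurium, while type IV collagen, laminins and nidogens form the basal lamina that wraps each Schwann cell and perineurial cell. Tenascins, hyaluronan-binding proteoglycans and small leucine-rich proteoglycans sit between them, tune collagen fibrils and act on axon growth.

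A collagen chain is coded as a run of glycine-X-Y triplets, and a probe inside such a run has the glycine codon GGN at every 9th base. The 3 member probes with the fullest rhythm are shown 5′ to 3′, with the GGN triplets of that rhythm in capitals, because 2 of their genes (Col9a1 and Col9a3) fell in SN and because the Col4a5 probe is the one that moved against the brighter probe of its gene. At least 5 of 6 steps held GGN in 3 member probes (3.3%), and in 10 of all probes on the array (0.0244%). Their positions are on the rat rn4 build: chr3:169707548-169707928 (plus strand) for Col9a3, chrX:36958983-36959042 (minus strand) for Col4a5, and chr9:22976816-22982770 (plus strand) for Col9a1, where the span from start to end is longer than the probe itself.
Col9a3: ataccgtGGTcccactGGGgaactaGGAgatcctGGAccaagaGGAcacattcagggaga
Col4a5: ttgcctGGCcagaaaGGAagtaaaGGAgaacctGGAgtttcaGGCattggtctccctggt
Col9a1: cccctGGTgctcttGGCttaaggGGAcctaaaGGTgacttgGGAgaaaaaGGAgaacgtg

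Promoter sequence is shown for Tnc and Col7a1, the 2 genes that rose at every day in SN, and for Fmod, which fell at every day. Sequences are from RefSeq on GRCr8 and give the bases before the gene start, in the direction of transcription; capitals mark the TATA box letters TATAAA, the CCAAT box and the GC box core GGGCGG. The Tnc stretch lies at chr5:82476132-82476381 (minus strand), that of Col7a1 at chr8:118483114-118483363 (plus) and that of Fmod at chr13:48045317-48045566 (plus).
Tnc: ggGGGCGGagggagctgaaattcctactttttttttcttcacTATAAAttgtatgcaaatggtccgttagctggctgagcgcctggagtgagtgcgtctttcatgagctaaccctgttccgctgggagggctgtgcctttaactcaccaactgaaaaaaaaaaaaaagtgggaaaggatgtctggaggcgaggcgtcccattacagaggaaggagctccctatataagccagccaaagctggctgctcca
Col7a1: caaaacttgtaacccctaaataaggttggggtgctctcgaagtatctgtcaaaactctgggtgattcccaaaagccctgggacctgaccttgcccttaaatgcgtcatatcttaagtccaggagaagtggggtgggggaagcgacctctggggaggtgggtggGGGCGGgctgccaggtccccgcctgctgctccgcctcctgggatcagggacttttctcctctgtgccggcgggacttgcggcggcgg
Fmod: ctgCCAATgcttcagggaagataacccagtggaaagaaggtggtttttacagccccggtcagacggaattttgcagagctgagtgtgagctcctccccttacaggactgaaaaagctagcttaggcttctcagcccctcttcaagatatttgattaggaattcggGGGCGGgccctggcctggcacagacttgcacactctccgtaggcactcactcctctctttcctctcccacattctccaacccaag

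Col4a1 and Col4a2, the main chains of type IV collagen, are transcribed away from each other from a shared stretch, shown because neither gene was called in SN at any day by its brightest probe. It is the 76 bases between the 2 starts at chr16:84885521-84885596 of GRCr8 (plus strand), and its single GGGCGG is read on the opposite strand.
Col4a1 and Col4a2: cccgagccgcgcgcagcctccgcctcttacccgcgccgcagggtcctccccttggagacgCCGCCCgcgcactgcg

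Promoter entries were found for 44 of the 57 genes (47 entries, of 33469 in all), and 4 motifs were searched on both strands. GGGCGG, the core of a GC box, was in 30 of 47 member entries (63.8%) against 33.1% of all entries. TATAAA was in 12.8% against 14.2%, CCAAT in 34% against 37.5%, and TGANTCA, the core of an AP-1 motif, in 4.26% against 7.33%. Each motif was searched on its own, so matches may overlap, and a match describes letters, not binding.

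The arrays have limits that touch every comparison with 0 d. All 0 d arrays were scanned on the first of 3 scan dates and the later days on the other 2. Day and scan date thus cannot be told apart in those comparisons. In SN, 4 d against 1 d and 7 d against 4 d lie within 1 scan date, while 14 d against 7 d crosses scan dates. Within a tissue no slide held arrays of different days. Slide and day therefore cannot be told apart in any comparison of days, successive days included. In DRG, 0 d replicates 2 and 3 stood apart, with 65.69% and 69.64% of probes well above background, against 73.7% to 86.74% on the other 28 arrays. In SN the 3 arrays of 0 d were the dimmest, at 76.36%, 73.7% and 74.16%, against 80.66% to 85.74% on the later SN arrays. The part of this in the rises of dim probes against 0 d was not tested. In bulk tissue, fewer cells of a type and less RNA per cell cannot be told apart. Several marker lists moved with the days in SN. The mean level of 7 skeletal muscle genes spanned 3.40 to 7.47 on day 0 and 3.45 to 4.83 on day 1. It spanned -1.25 to 1.35 on day 4, -1.33 to 2.78 on day 7 and 2.91 to 4.69 on day 14. All 7 fell at 4 and 7 d and none was called at 1 or 14 d. Of 5 perineurial genes 3, 3, 3 and 2 fell at 1, 4, 7 and 14 d (mean level 3.24 to 3.35 on day 0, 1.93 to 2.08 on day 7), and of 8 Schwann cell genes 2, 5, 5 and 4 fell (5.46 to 5.70 and 4.33 to 4.53). Of 7 macrophage genes 6, 7, 5 and 4 rose (0.91 to 1.14 on day 0, 2.85 to 3.19 on day 4), and of 5 proliferation genes 3, 5, 5 and 5 rose (-0.11 to 0.46 and 2.67 to 2.83). Of 5 adipocyte genes, 4 of them tested, 0, 3, 2 and 3 fell (0.30 to 1.24 on day 0, -0.35 to 0.35 on day 4). Of 9 sensory neuron genes 3, 3, 3 and 4 rose and 0, 2, 2 and 4 fell in SN, and of 5 satellite glia genes 1, 1, 2 and 1 rose and 1, 1, 0 and 0 fell. Of 6 fibroblast genes 0, 1, 1 and 1 rose and none fell. Of 7 endothelial genes 0, 1, 1 and 0 rose and 1 fell at each day. Of 4 smooth muscle and pericyte genes 1 rose on day 1 and none was called later. In DRG 0, 2, 3 and 2 of 7 macrophage genes rose at 1, 4, 7 and 14 d, and 2 of 5 proliferation genes fell on day 1. At most 1 gene of any other list was called at a day in DRG. The part of these cells in the matrix results was not tested. The 9 sensory neuron genes were all higher in DRG than in SN on day 0. Higher in SN on that day were 5 of 6 fibroblast genes (1 was lower), 5 of 5 perineurial and 6 of 7 endothelial genes. So were 4 of 4 tested adipocyte genes, 5 of 8 Schwann cell genes and 6 of 7 macrophage genes, with none lower. The part of this in the difference between the tissues was not tested.

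In uninjured tissue, most matrix genes were higher in SN than in DRG. Of 89 tested member probes 57 (64%) were higher in SN and 9 (10.1%) lower, where 19.3% of all 36334 tested probes were higher and 16.9% lower, and the median difference was 1.35 over member probes and 0.14 over all. By gene, 39 of 56 were higher in SN and 5 higher in DRG. All 4 small leucine-rich proteoglycans, all 3 type VI collagen chains, both nidogens and 9 of 11 fibrillar collagens were higher in SN.

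The largest difference in favour of SN was Col9a1, a chain of the fibril-associated type IX collagen, at 3.43 ± 0.21 (adjusted p = 1.22e-12). Fmod, fibromodulin, which binds collagen fibrils, differed by 3.27 ± 0.21, Col6a1 by 2.89 ± 0.11, Col5a1 by 2.56 ± 0.15 and Fn1, fibronectin, by 2.50 ± 0.18. In favour of DRG, Bcan, brevican, a proteoglycan of perineuronal matrix, was at -0.26, -0.50 and -0.50 on the DRG arrays and -3.58, -3.86 and -3.45 on the SN arrays, a difference of -3.21 ± 0.16 (adjusted p = 1.47e-14). The groups did not overlap. Ncan, neurocan, its relative, was not well above background on any SN array on day 0 and was at -2.23, -2.14 and -2.43 in DRG, at least 17.5-fold higher there. Col10a1, Col4a3 and Tnc were the others higher in DRG, with differences of -2.94, -2.44 and -1.49. Called member probes were still mostly higher in SN with slide as a fixed block. That fit rests on 1 DRG array of day 0 (replicate 1), the only one on the slide of the SN arrays.

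**Figure D1:**
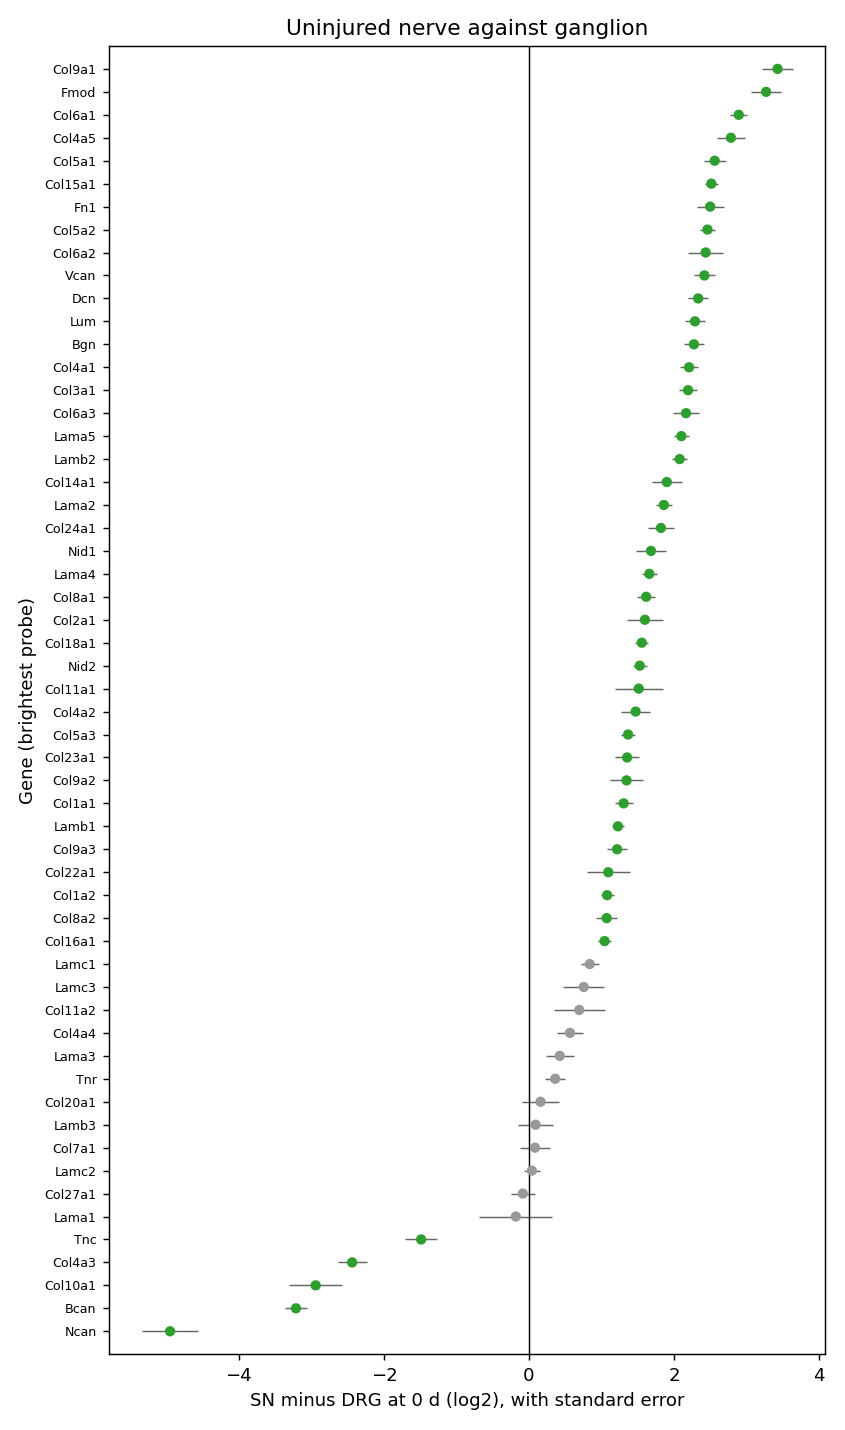
Difference between SN and DRG on day 0 for each tested member gene (horizontal axis, log2 SN minus DRG, with standard error; 3 arrays a group), green where called and grey where not. Most genes lie to the right of 0, up to 3.43 for Col9a1, and Ncan, Bcan (-3.21), Col10a1, Col4a3 and Tnc lie to the left. Ncan is drawn at its measured difference, but was not well above background in SN, so that only the bound in the text holds for it.

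After resection, the matrix genes of SN split into a rising and a falling set. Against 0 d, 14 of 88 member probes rose on day 1 (15.9%, against 18.6% of all 35163 tested probes) and 12 fell (13.6%, against 3.43%). On day 4 there were 14 that rose (15.9%, against 15.9%) and 16 that fell (18.2%, against 6.78%). On day 7 there were 12 that rose (13.6%, against 18.1%) and 14 that fell (15.9%, against 6.81%), and on day 14 there were 10 that rose (11.4%, against 14.3%) and 15 that fell (17%, against 5.46%). The share that rose was therefore at or below that of all probes and the share that fell above it at each day. The median change was -0.48, -0.19, -0.06 and -0.06 over member probes and 0.11, 0.15, 0.15 and 0.16 over all tested probes. The split depended on the scaling: with each array scaled to its median, which moved the median of all probes on day 1 to -0.17, 9, 7, 10 and 9 rose and 30, 24, 24 and 19 fell. With quantile normalization 8 rose and 14 fell on day 1, and with normexp background correction and quantile normalization together 5 rose and 6 fell.

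By gene, 13 of 56 rose at 1 or more days in SN, 17 fell, none did both and 26 were called at no day. The share of all probes called at 1 or more days was not counted, so only the shares by day above compare with all probes. Tnc and Col7a1 rose at all 4 days. Col11a2, Col24a1, Col4a5, Col9a1, Col9a2 and Fmod fell at all 4.

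**Figure D2:**
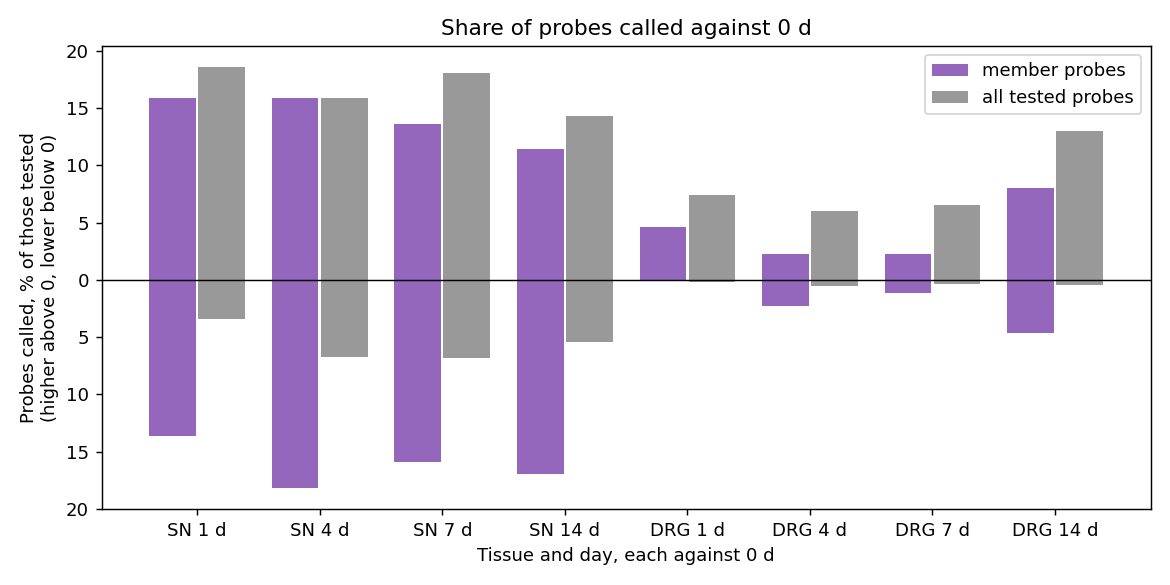
Share of tested probes called (vertical axis, percent; higher above 0, lower below) for the member probes and for all tested probes in each comparison with 0 d in SN and DRG. In SN the members' share that fell, 13.6% to 18.2%, exceeds that of all probes, 3.43% to 6.81%, while the shares that rose lie close to or below it.

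**Figure D3:**
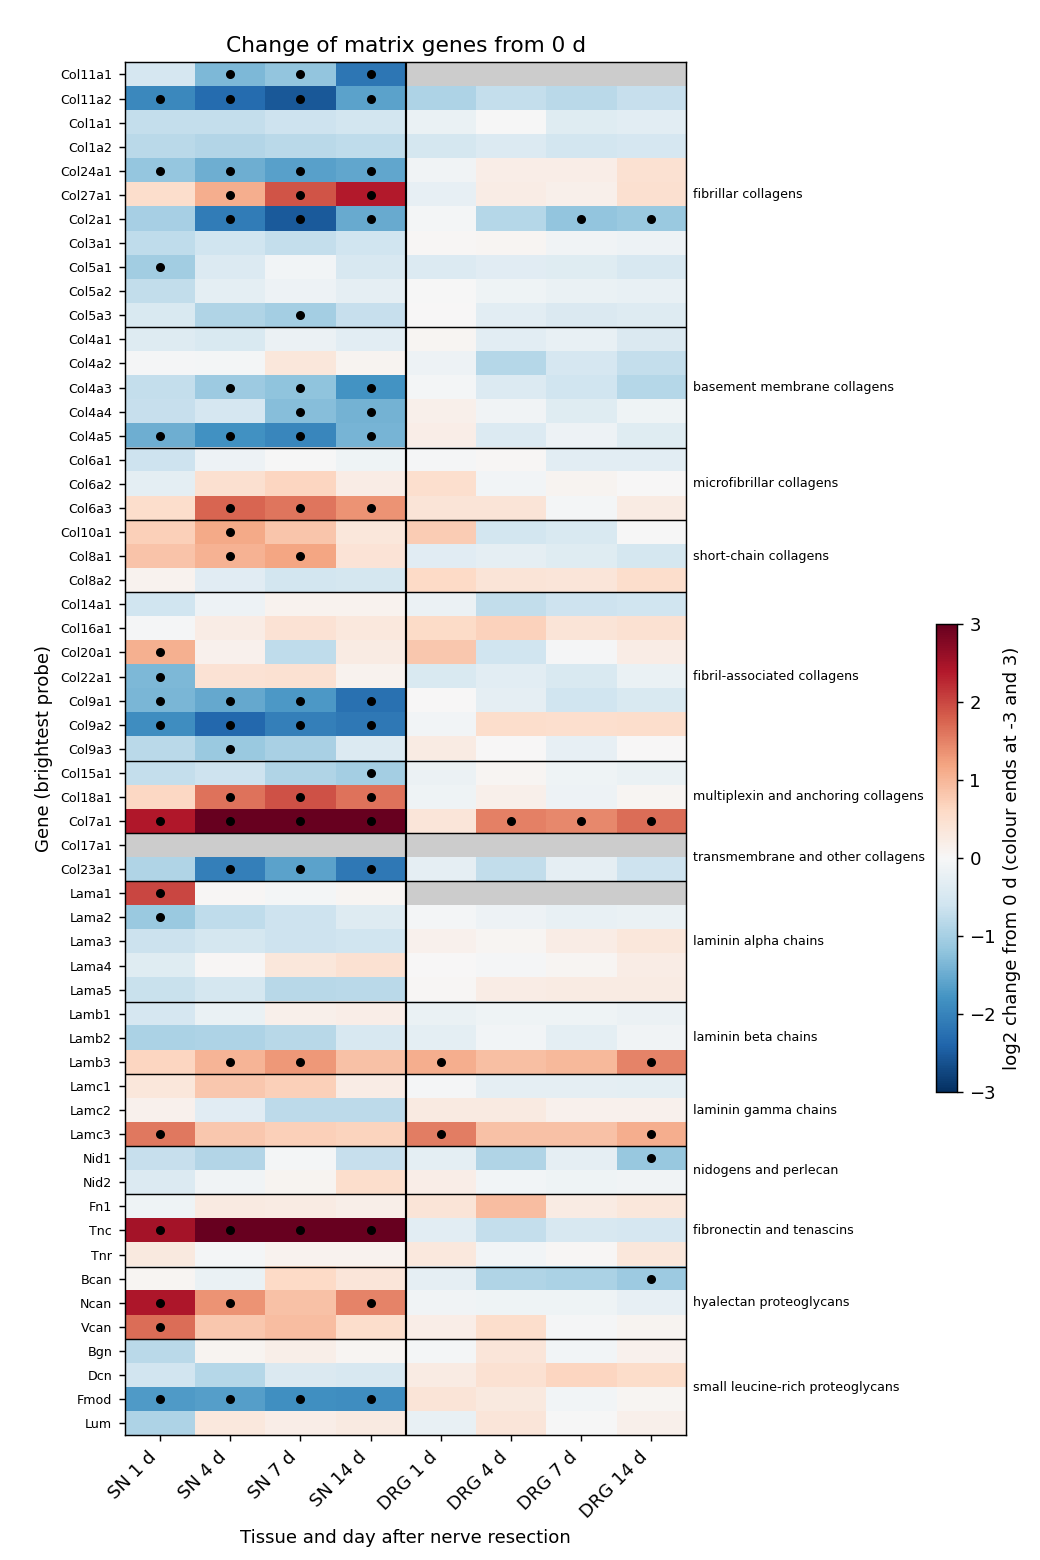
Log2 change against 0 d of each member gene (vertical axis, by class) at 1, 4, 7 and 14 d in SN and in DRG (horizontal axis), in colour, with black dots where called and grey where not tested. Most dots lie in SN, where 30 of 56 genes were called at 1 or more days, against 6 of 54 in DRG. Of all tested probes, 14.3% to 18.6% rose and 3.43% to 6.81% fell at a day in SN. In DRG 6.04% to 13% rose and 0.169% to 0.506% fell, so more calls in SN are not particular to these genes. The share of all probes called at 1 or more days was not counted.

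Fibronectin and tenascins come first because the largest rise was among them. Tnc, tenascin-C, a glycoprotein of developing and wounded tissue, had normalized signals of -0.56, -0.88 and -1.35 on day 0 in SN. They were 1.43, 1.64 and 1.61 on day 1, 3.73, 4.05 and 3.87 on day 4, 3.32, 3.75 and 3.91 on day 7 and 2.95, 1.86 and 2.37 on day 14. Every array after injury lay above every 0 d array, and those of 4 and 7 d were highest. The change was 2.49 ± 0.26 on day 1 (adjusted p = 9.11e-06) and 4.81 ± 0.26 on day 4 (adjusted p = 5.39e-08), a 28.1-fold rise. It was 4.59 on day 7 and 3.32 on day 14 (9.99-fold), and the second Tnc probe gave 2.36, 4.01, 4.31 and 3.22. Between successive days Tnc rose by 2.32 ± 0.26 from 1 to 4 d (adjusted p = 5.79e-05) and fell by 1.27 from 7 to 14 d (adjusted p = 0.011); the change from 4 to 7 d was -0.22 (adjusted p = 0.582).

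In DRG the Tnc arrays were at 0.50, 0.68 and 0.49 on day 0 and 0.13, -0.12 and -0.47 on day 4. No day was called there, with changes of -0.31, -0.71, -0.49 and -0.51, below the fold threshold. The change in SN exceeded that in DRG by 5.52 ± 0.31 on day 4 (adjusted p = 7.24e-12). Fn1 in SN was at 7.47, 7.57 and 7.48 on day 0 and 7.72, 7.57 and 8.06 on day 4, and its brightest probe was called at no day, with changes of -0.12, 0.28, 0.24 and 0.17. A dimmer Fn1 probe was called on day 4, with a change of 1.0. In DRG Fn1 changed by 0.93 ± 0.22 on day 4 (adjusted p = 0.00812), short of the fold threshold.

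Col7a1, the chain of the anchoring fibrils, had the second largest rise in SN. It was at -2.86, -3.82 and -4.13 on day 0, -1.25, -1.22 and -1.11 on day 1, -0.52, -0.15 and -0.28 on day 4, 0.02, -0.12 and -0.10 on day 7 and -0.52, -0.35 and -0.44 on day 14. All arrays after injury lay above the 0 d arrays. The change was 2.41 ± 0.24 on day 1 (adjusted p = 6.27e-06) and reached 3.54 ± 0.24 on day 7 (adjusted p = 2.38e-07), 11.6-fold. In DRG it was at -3.63, -4.06 and -3.37 on day 0, -3.19, -3.55 and -3.26 on day 1, -2.21, -2.35 and -1.99 on day 4, -2.25, -2.24 and -2.25 on day 7 and -2.05, -1.97 and -2.05 on day 14. The 1 d arrays overlapped those of 0 d and the later ones did not. Col7a1 rose there by 1.51 ± 0.15 on day 4 (adjusted p = 4.47e-05), 1.44 on day 7 and 1.67 on day 14. With normexp background correction and quantile normalization together the DRG changes were 0.81, 0.78 and 0.90 and were not called. The change in SN was larger at every day, by 2.06, 1.78, 2.10 and 1.5.

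Col18a1, a basement membrane collagen whose end fragment is endostatin, was at 3.79, 3.99 and 3.88 on day 0 in SN, 5.39, 5.51 and 5.63 on day 4 and 5.77, 5.80 and 5.79 on day 7. It rose by 1.62 ± 0.10 on day 4 (adjusted p = 1.77e-07), 1.90 ± 0.10 on day 7 (adjusted p = 6.45e-08) and 1.62 on day 14, with no overlap. The second Col18a1 probe gave 1.70, 1.87 and 1.58. Col15a1, its closest relative among the collagens, went the other way, with a change of -1.02 on day 14, called, and -0.71, -0.62 and -0.91 before, not called.

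Among the fibrillar collagens 1 gene rose and 6 fell at 1 or more days in SN, out of 11. Col27a1, a chain of cartilage and developing tissue, was at -2.17, -1.98 and -2.53 on day 0, -1.82, -1.67 and -1.61 on day 1, -1.14, -1.06 and -1.18 on day 4, -0.17, -0.45 and -0.42 on day 7 and 0.31, 0.30 and -0.16 on day 14. It was higher at each later day, with no overlap from 1 d on, and was called at 4, 7 and 14 d with changes of 1.1, 1.88 and 2.37 ± 0.15 (adjusted p = 2.82e-07 on day 14, 5.18-fold). The call on day 4 was lost under 4 other normalizations, with changes of 0.70 to 0.98, and without SN 0 d replicate 3 (0.95). In DRG its values spanned -2.36 to -1.98 on day 0 and -1.79 to -1.47 on day 14, and no day was called.

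**Figure D4:**
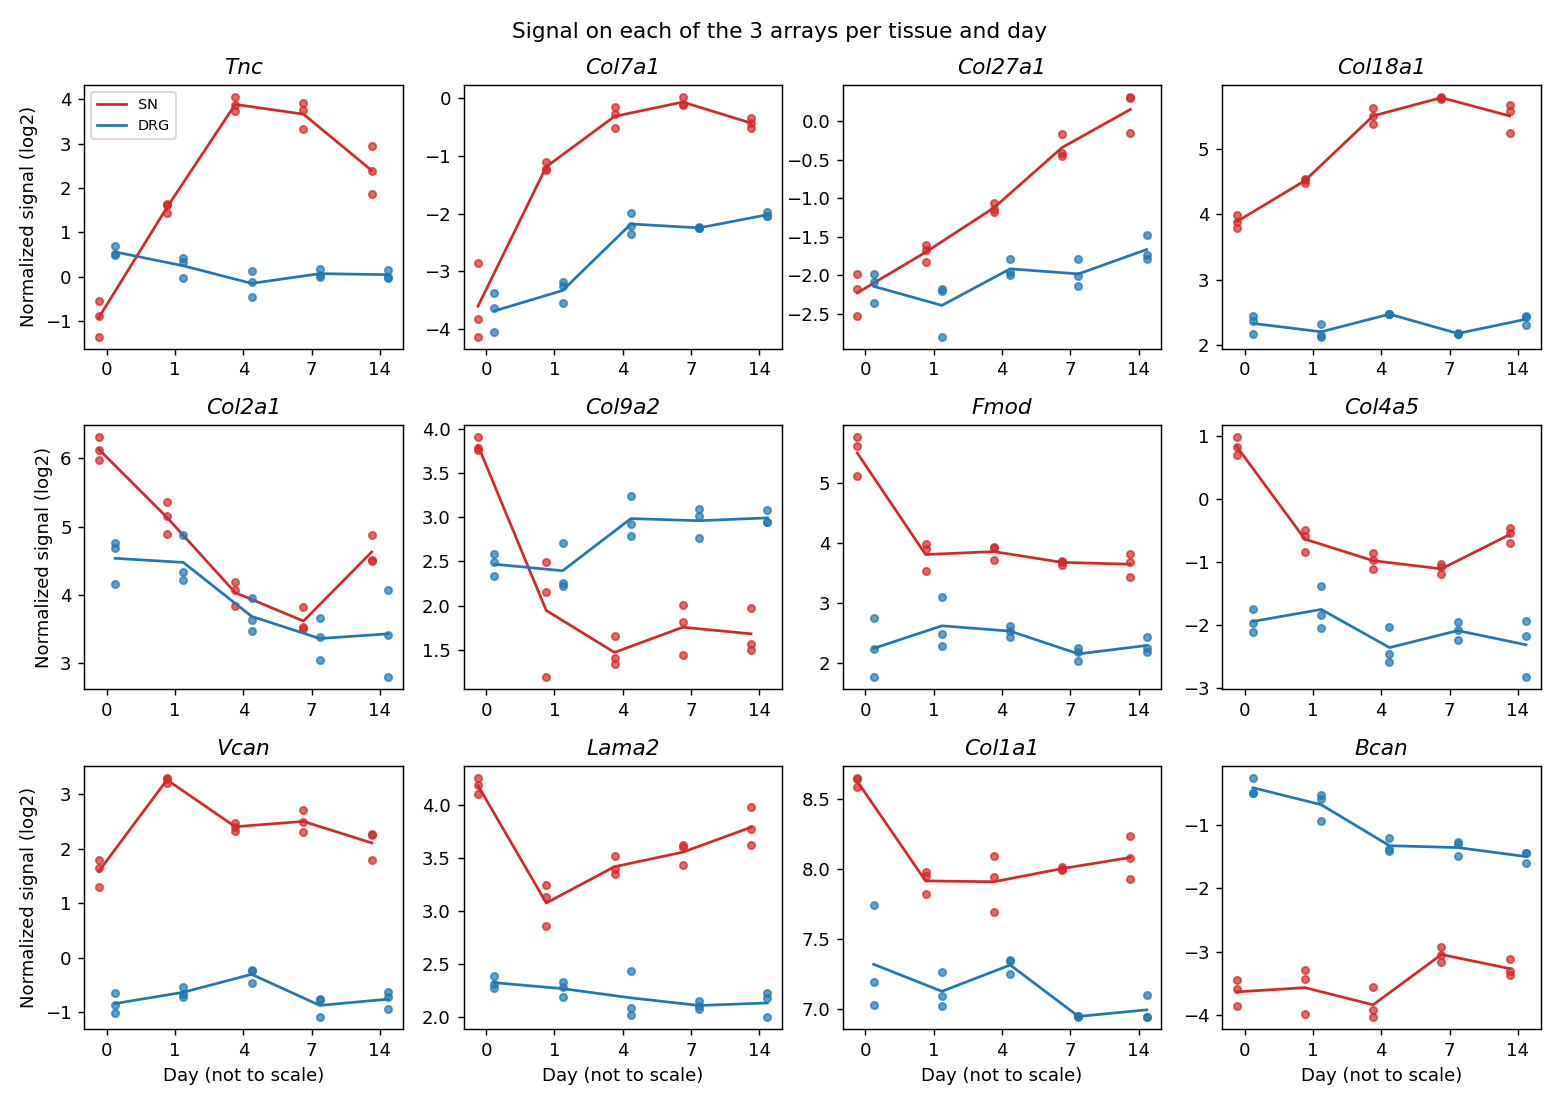
Normalized signal (vertical axis, log2 relative to the array's 75th percentile) of 12 member genes on each array by day (horizontal axis, d), SN in red and DRG in blue, with lines through the means of 3 arrays. Tnc and Col7a1 rise steeply in SN, Col2a1, Col9a2, Fmod and Col4a5 fall, Vcan peaks on day 1, and Bcan falls slowly in DRG.

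Col2a1, the main chain of cartilage fibrils, was bright in SN on day 0, at 5.97, 6.13 and 6.31. It was at 5.16, 5.36 and 4.89 on day 1, 4.19, 3.84 and 4.07 on day 4, 3.83, 3.53 and 3.5 on day 7 and 4.5, 4.88 and 4.51 on day 14. Every later array lay below the 0 d arrays, the lowest on day 7. It fell at 4, 7 and 14 d, by a change of -2.52 ± 0.15 on day 7 (adjusted p = 1.21e-07), -2.10 on day 4 and -1.5 on day 14. From 7 to 14 d it rose by 1.01 ± 0.15 (adjusted p = 0.00297). In DRG it was at 4.76, 4.69 and 4.16 on day 0 and 3.66, 3.05 and 3.38 on day 7, without overlap, and fell on day 7 (-1.18 ± 0.30, adjusted p = 0.0147) and on day 14 (-1.11). The call on day 14 was lost without DRG 0 d replicate 1 (-0.99) or 14 d replicate 1 (-0.79), and that on day 7 without 7 d replicate 2 (-1.02) and without both 0 d arrays that stood apart (-1.4). The second, dimmer Col2a1 probe did not move this way: its changes were 0.83, 0.02, -0.07 and 0.17 in SN, and 0.25 on day 7 and 0.46 on day 14 in DRG.

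The partners of type II collagen in cartilage fibrils fell as well. Col11a2, which forms the fibril core, was at 1.87, 2.65 and 2.03 on day 0 in SN, 0.22, 0.44 and 0.06 on day 1, 0.01, -0.15 and -0.21 on day 4, -0.19, -0.47 and -0.44 on day 7 and 0.39, 0.56 and 0.81 on day 14. No later array reached the 0 d arrays. The change was -2.55 ± 0.18 on day 7 (adjusted p = 3.84e-07), the largest fall of the set, and -1.59 on day 14. Its DRG arrays were spread widely on day 0, at 2.88, 1.19 and 0.40, and no day was called. Without DRG 0 d replicate 3 it was called lower in DRG at 1, 4, 7 and 14 d (-1.46, -1.27, -1.35 and -1.24). Col9a2, which coats the fibril, was at 3.79, 3.91 and 3.76 on day 0, 2.15, 2.49 and 1.19 on day 1, 1.65, 1.41 and 1.34 on day 4, 2.01, 1.44 and 1.81 on day 7 and 1.5, 1.97 and 1.56 on day 14 in SN. It fell by 2.35 on day 4 (adjusted p = 1.34e-05, 5.09-fold lower), with no overlap at any day. In DRG its values on day 4, 2.79, 2.92 and 3.24, lay above those on day 0, 2.58, 2.49 and 2.33, by 0.52, not called, and the difference between the tissues was -2.87 ± 0.32 (adjusted p = 2.41e-07).

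Col9a1 fell at all 4 days (-1.38, -1.53, -1.72 and -2.24) and Col9a3 on day 4 (-1.12). Col24a1, a fibrillar collagen of bone, fell at all 4 days as well, by a change of -1.17 on day 1 and -1.62 on day 7. Col11a1, well above background on 2 of 3 arrays on day 0, was called lower at 4, 7 and 14 d, with bounds of at least 2.22-fold lower on day 4 and at least 1.88-fold on day 14. A list of 7 other bone and cartilage marker genes, 6 of which were tested, had 2, 1, 1 and 1 lower and 1, 1, 2 and 1 higher at 1, 4, 7 and 14 d, and their mean level in SN on day 0 was -3.31 to -3.08. Of the type V chains, which nucleate type I fibrils, Col5a1 fell on day 1 (-1.04) and Col5a3 on day 7 (-1.03). The transmembrane Col23a1 fell at 4, 7 and 14 d (-2.05, -1.60 and -2.15) by its brightest probe. Its other probe changed by -0.54, -0.13 and -0.54 at those days and was not called.

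The fibrillar chains of the nerve's sheaths were not called by their brightest probes. Col1a1, the main chain of type I collagen, was at 8.58, 8.64 and 8.65 on day 0 in SN, 7.95, 7.98 and 7.82 on day 1, 7.94, 7.69 and 8.09 on day 4, 8.0, 7.99 and 8.01 on day 7 and 8.08, 7.93 and 8.23 on day 14. No later array reached the 0 d arrays, yet the changes of -0.71, -0.72, -0.62 and -0.54 stayed under the fold threshold. The 2 other Col1a1 probes were called, the first at all 4 days with changes of -1.04, -1.11, -1.07 and -1.49, the second at 1, 4 and 14 d with -1.24, -1.22 and -1.62. In DRG the latter was called lower as well, on day 4 (-1.01) and 14 d (-1.1). Col3a1, of type III collagen, went from 8.98, 8.98 and 8.94 on day 0 to 8.25, 8.25 and 8.14 on day 1, a change of -0.75 ± 0.07 (adjusted p = 4.75e-06), again under the fold threshold; it was at 8.44, 8.27 and 8.38, 8.29, 8.31 and 8.18 and 8.33, 8.31 and 8.46 at 4, 7 and 14 d. The type VI chains differed: Col6a1 was at 5.29, 5.32 and 5.29 on day 0 and 4.58, 4.82 and 4.65 on day 1 (-0.62, not called), while Col6a3 went from 0.68, 0.61 and 0.43 to 2.29, 2.41 and 2.27 on day 4.

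Col6a3, whose chain forms beaded microfibrils with those of Col6a1 and Col6a2, rose by 1.75 ± 0.11 on day 4 (adjusted p = 1.35e-07), 1.60 on day 7 and 1.35 on day 14. Most of this lay between 1 and 4 d (1.22 ± 0.11, adjusted p = 1.3e-05), on 1 scan date but on different slides. Col6a2, which lies next to Col6a1 on chromosome 20, was called at no day. Of the short-chain collagens, Col8a1, made by vessel and fibrous tissue, rose by 1.04 on day 4 and 1.18 on day 7, and Col10a1 by 1.14 on day 4. Col20a1 was called higher on day 1 alone (1.07).

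In the basal lamina, type IV collagen had 3 chains that fell and 2 that were not called. Col4a5, the alpha5 chain, was at 0.70, 0.82 and 0.98 on day 0 in SN, -0.59, -0.49 and -0.85 on day 1, -0.86, -1.11 and -0.97 on day 4, -1.04, -1.20 and -1.09 on day 7 and -0.54, -0.46 and -0.70 on day 14. It was lower on every later array and fell by 1.95 on day 7 (adjusted p = 8.45e-08). Its dim probe, printed above, was at -6.14, -5.90 and -5.66 on day 0 and -3.66, -3.72 and -3.78 on day 1, and was called higher at all 4 days (2.18, 2.0, 1.64 and 1.17). Of 24 genes with several tested probes in SN, Col4a5 and Lamc3 were the 2 with probes called in opposite directions at 1 day.

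Col4a3 and Col4a4, which lie next to each other on chromosome 9 and share a start region, fell together on day 7 (-1.20 and -1.27) and on day 14 (-1.79 and -1.41). Col4a1 went from 5.83, 6.11 and 6.03 on day 0 to 5.52, 5.44 and 5.61 on day 4 and 5.92, 5.52 and 5.58 on day 14, and its changes were -0.39, -0.47, -0.18 and -0.32. Col4a2 changed by -0.03, -0.06, 0.34 and 0.09. Neither brightest probe was called, but the other Col4a1 probe was called lower on day 7 (-1.1) and 14 d (-1.15).

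Laminins are trimers of an alpha, a beta and a gamma chain. Lama2, the alpha chain of the Schwann cell basal lamina whose loss in people brings muscular dystrophy with a neuropathy, was at 4.19, 4.11 and 4.26 on day 0 in SN, 3.13, 3.25 and 2.86 on day 1, 3.40, 3.35 and 3.52 on day 4, 3.62, 3.44 and 3.61 on day 7 and 3.78, 3.98 and 3.62 on day 14. The 1 d arrays were lowest and no later array reached the 0 d arrays. It fell on day 1 by 1.11 (adjusted p = 8.35e-06), and the changes at 4, 7 and 14 d were -0.77, -0.63 and -0.39. The 1 d call was lost with quantile normalization (-0.92), with normexp background correction and quantile normalization together (-0.90), with the authors' values (-0.93) and without SN 1 d replicate 3 (-1.0). The 3 other Lama2 probes were not called on day 1 (-0.96, -0.96 and -0.99), and 2 of them were called lower on day 4 (-1.05 and -1.09).

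The other widely used chains were called at no day by their brightest probes. Lamb2, the beta2 chain, was at 4.01, 3.74 and 3.83 on day 0, 2.96, 2.92 and 2.85 on day 1, 3.0, 2.76 and 3.04 on day 4, 3.05, 2.98 and 3.02 on day 7 and 3.39, 3.5 and 3.25 on day 14, and its change of -0.94 ± 0.10 on day 1 (adjusted p = 8.07e-06) stayed under the fold threshold. Lamb1, the beta1 chain, was at 3.58, 3.48 and 3.55 on day 0 and 3.08, 3.15 and 2.85 on day 1, with changes of -0.51, -0.20, 0.14 and 0.21. Lamc1, the gamma1 chain, was at 0.74, 0.58 and 0.74 on day 0, 1.44, 1.46 and 1.60 on day 4 and 1.01, 0.82 and 0.88 on day 14; its change on day 4 was 0.82 ± 0.09, not called. Lama4, a vessel and nerve alpha chain, was at 3.32, 3.68 and 3.32 on day 0, 3.09, 3.03 and 3.10 on day 1 and 3.92, 3.93 and 3.83 on day 14, and was called at no day.

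Some of the rarer chains were called in both tissues. Lamb3, of the epithelial laminins, was at -1.19, -1.24 and -1.27 on day 0 in SN, -1.02, -0.21 and -0.55 on day 1, -0.33, -0.50 and 0.21 on day 4, 0.02, 0.06 and 0.10 on day 7 and -0.58, -0.77 and 0.28 on day 14. It rose by 1.29 ± 0.27 on day 7 (adjusted p = 0.00115), without overlap, and by 1.03 on day 4, and the 4 d call was lost without 4 d replicate 3 (0.82) and under 4 other normalizations. Its 3 other probes ran differently: 2 were called higher on day 1 (1.23 and 1.25) and changed by -0.31 and 0.10 on day 7, and 1, well above background on 1 of 3 arrays on day 0, was called higher at all 4 days (1.11, 1.15, 1.32 and 1.31). In DRG it was at -1.76, -1.08 and -1.13 on day 0, -0.47, 0.04 and -0.27 on day 1 and 0.08, 0.10 and 0.33 on day 14, and rose by 1.09 ± 0.20 on day 1 (adjusted p = 0.0031) and 1.5 ± 0.20 on day 14 (adjusted p = 0.000215). The 1 d call was lost without DRG 0 d replicate 1 (0.88) or 1 d replicate 2 (0.95), with median scaling (0.89), with normexp background correction and quantile normalization together (0.94) and with the methods' t-test after adjustment, and the 3 other probes were not called on day 1 (0.50, 0.63 and 0.68). Lamc3, a gamma chain, rose on day 1 in SN (1.59) and DRG (1.53) by its brightest probe, but another Lamc3 probe fell on day 1 in SN (-1.05). In DRG that other probe changed by -0.105 on day 1 and was not called. The brightest probe was near background there, well above it on 2 of 3 DRG arrays on day 0. Lama1 was not well above background on any SN array on day 0 and was at -6.06, -3.21 and -5.97 on day 1, at least 2.5-fold higher, with 1 array far above the others.

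Nid1, which links laminin to type IV collagen, was at 4.40, 4.38 and 4.27 on day 0 in SN, 3.52, 3.93 and 3.56 on day 1, 3.41, 3.19 and 3.78 on day 4, 4.5, 3.98 and 4.41 on day 7 and 3.99, 3.60 and 3.39 on day 14, and was called at no day. In DRG it was at 2.83, 2.62 and 2.55 on day 0 and 1.61, 1.81 and 1.17 on day 14, without overlap, and fell by 1.14 on day 14 (adjusted p = 0.000948); its 2 other probes gave 0.15 and 0.05, and the call was lost without DRG 14 d replicate 3 (-0.95). Nid2 was called at no day.

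The hyaluronan-binding proteoglycans had different courses in the 2 tissues. Vcan, versican, the one of peripheral nerve, was at 1.65, 1.79 and 1.30 on day 0 in SN, 3.28, 3.21 and 3.30 on day 1, 2.33, 2.40 and 2.47 on day 4, 2.49, 2.70 and 2.30 on day 7 and 2.26, 1.79 and 2.25 on day 14. The 1 d arrays stood above all others. It rose by 1.68 ± 0.15 on day 1 (adjusted p = 3.09e-06), with 0.82, 0.92 and 0.52 afterwards, not called. In DRG its arrays were -1.01, -0.87 and -0.64 on day 0 and -0.66, -0.53 and -0.71 on day 1, not called, and the change in SN exceeded that in DRG by 1.47 ± 0.20 on day 1 (adjusted p = 7.28e-06).

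Bcan was at -0.26, -0.50 and -0.50 on day 0 in DRG, -0.53, -0.94 and -0.59 on day 1, -1.21, -1.41 and -1.38 on day 4, -1.31, -1.49 and -1.28 on day 7 and -1.61, -1.45 and -1.45 on day 14. From 1 d on no array reached the 0 d mean and from 4 d on none overlapped. It fell by 1.08 on day 14 (adjusted p = 5.05e-05), after -0.91 and -0.94 at 4 and 7 d, under the fold threshold. The second Bcan probe was called lower on day 4 (-1.2) and not on day 14 (-0.94). In SN it was dim, at -3.58, -3.86 and -3.45 on day 0 and -3.31, -3.37 and -3.11 on day 14, and not called. Ncan in SN was at -6.62, -6.93 and -8.10 on day 0, -4.72, -4.92 and -4.71 on day 1, -5.29, -5.22 and -7.11 on day 4, -7.00, -6.22 and -5.76 on day 7 and -6.02, -6.02 and -5.11 on day 14. No SN array of day 0 had it well above background, so it entered the test only through later days. It was at least 3.06-fold higher on day 1. The adjusted p of 0.00156 (limma) belongs to the measured change and does not test that bound. With normexp background correction and quantile normalization together its change on day 1 was 0.33 and not called. Its calls at 4 and 14 d were lost under 17 and 8 alternatives, among them without SN 0 d replicate 3. In DRG Ncan spanned -2.43 to -2.14 on day 0 and -2.53 to -2.47 on day 14, and was not called.

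Of the 4 small leucine-rich proteoglycans, which bind collagen fibrils and set their width, 1 fell. Fmod was at 5.77, 5.63 and 5.12 on day 0 in SN, 3.90, 3.98 and 3.54 on day 1, 3.94, 3.71 and 3.92 on day 4, 3.70, 3.69 and 3.64 on day 7 and 3.43, 3.82 and 3.68 on day 14. Every later array lay below the 0 d arrays, and the level differed little between 1 and 14 d. It fell by 1.70 on day 1 (adjusted p = 6.12e-06) and 1.86 on day 14 (adjusted p = 3.06e-06, 3.63-fold lower). In DRG, at 1.76, 2.74 and 2.22 on day 0, it was called at no day, and the difference between the tissues was -2.08 ± 0.29 on day 1 (adjusted p = 1.24e-05).

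Dcn, decorin, was at 7.42, 7.55 and 7.76 on day 0, 6.93, 7.15 and 6.92 on day 1, 6.68, 6.58 and 6.90 on day 4, 7.20, 7.13 and 7.11 on day 7 and 7.02, 7.10 and 7.14 on day 14, with changes of -0.58, -0.86, -0.43 and -0.49, not called. Lum, lumican, its neighbour on chromosome 7, went from 4.78, 4.80 and 5.0 on day 0 to 3.90, 4.02 and 3.85 on day 1 and 5.0, 5.14 and 5.39 on day 4. Its change against 0 d was -0.94 ± 0.12 on day 1, not called, and it rose by 1.25 ± 0.12 from 1 to 4 d (adjusted p = 1.72e-05). Bgn, biglycan, went from 7.21, 7.21 and 7.20 on day 0 to 6.44, 6.45 and 6.34 on day 1, a change of -0.80 ± 0.14, not called, and of 0.88 from 1 to 4 d.

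Between successive days in SN, 6 member probes rose and 5 fell from 1 to 4 d, where 3.4% of all tested probes rose and 5.13% fell. From 4 to 7 d none rose and 1 fell, against 1.33% and 1.27% of all, and from 7 to 14 d 3 rose and 2 fell, against 0.91% and 0.739%. By gene, the rises from 1 to 4 d included Tnc, Col6a3, Lum and Col22a1 (1.77), and the falls Col2a1 (-1.1) and Col23a1 (-1.15).

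In DRG few member probes were called. Of 87 probes 4 rose and none fell on day 1, where 7.43% of all 34977 tested probes rose and 0.169% fell. Counts were 2 and 2 on day 4 (6.04% and 0.506% of all), 2 and 1 on day 7 (6.58% and 0.326%), and 7 and 4 on day 14 (13% and 0.46%). By gene, Col7a1, Lamb3 and Lamc3 rose and Bcan, Col2a1 and Nid1 fell at 1 or more days, and 48 of 54 were called at none. Leaving out the 2 DRG arrays of 0 d that stood apart gave 3 probes that rose and 4 that fell on day 1, 5 and 7 on day 4, and 4 and 6 on day 7. This leaves 1 array on day 0, assumed to vary like the other groups. The split turned with the scaling on day 14, where median scaling gave 2 probes that rose and 7 that fell, and on day 4, where it gave 1 and 7.

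The change differed between the tissues for many members, as it did for many of all probes. Of 86 probes tested in both, the SN change was above that of DRG for 9 and below it for 38 on day 1, where the shares of all 33806 probes were 15.9% and 19.7%. The counts were 14 and 30 on day 4 (16.3% and 34.9%, against 20.1% and 25.2% of all). They were 16 and 25 on day 7 (18.6% and 29.1%, against 17.6% and 20.4%) and 17 and 22 on day 14 (19.8% and 25.6%, against 12.9% and 19.4%). The split turned with the normalization at the later days: quantile normalization gave 24 above and 24 below on day 7 and 23 and 20 on day 14, while on day 14 the authors' values gave 22 and 20 and normexp with quantile normalization 21 and 19. Col18a1, Col27a1, Col7a1, Col8a1 and Tnc were above at all 4 days. Col15a1, Col23a1, Col24a1, Col3a1, Col4a5, Col9a1, Col9a2, Dcn, Fmod, Lama5 and Lamb2 were below at all 4. With slide as a fixed block, 3 genes (Col18a1, Col7a1 and Tnc) were above and 5 (Col15a1, Col4a5, Col9a2, Dcn and Fmod) below at all 4 days.

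Genes that build, cut, crosslink or bind the matrix were counted in 6 lists, each gene by its brightest probe, to be read against the shares of all tested probes in SN that rose (18.6%, 15.9%, 18.1% and 14.3% at 1, 4, 7 and 14 d) and fell (3.43%, 6.78%, 6.81% and 5.46%). Of 21 matrix-degrading proteases 6, 9, 9 and 9 rose in SN at 1, 4, 7 and 14 d, and 1, 1, 0 and 0 fell. In DRG 5, 4, 6 and 5 rose and none fell, where 7.43%, 6.04%, 6.58% and 13% of all tested DRG probes rose and 0.169% to 0.506% fell. The median change of the proteases in SN was 0.55, 0.76, 0.69 and 0.56, beside the 0.11 to 0.16 over all tested probes. In DRG it was 0.17, 0.39, 0.47 and 0.37. Mmp3, stromelysin-1, rose by 5.01 on day 1 in SN (adjusted p = 2.69e-07) and by 4.35 on day 7 in DRG (adjusted p = 1.71e-06). In DRG it was near background on day 0, well above it on 1 of 3 arrays, so the size of that rise is uncertain. Of 8 protease inhibitors (median change in SN -0.63 to -0.14) 3, 3, 3 and 1 rose and 1, 1, 0 and 0 fell in SN. Timp1, which blocks matrix metalloproteinases, rose by 1.58 on day 1. Timp3 fell by 2.12 on day 4 in SN and by 1.14 on day 4 in DRG.

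Of 18 genes of collagen processing (median -0.37 to 0.14) 2, 4, 4 and 3 rose in SN and 1, 0, 1 and 1 fell. P4ha3, a prolyl hydroxylase subunit, rose by 2.72 on day 4 and Loxl4, a crosslinking oxidase, by 2.20 on day 1. Of 26 matrix receptors (median -0.13 to 0.25) 4, 5, 7 and 6 rose and 1, 4, 5 and 2 fell, among them Sdc1, the proteoglycan syndecan-1, by 2.50 on day 1 in SN and 2.56 on day 7 in DRG, and Itga6, a laminin receptor subunit, which fell by 1.77 on day 4. Of 10 genes of the TGF-beta axis (median at most 0.5) 1, 3, 2 and 3 rose and none fell. Ltbp2, which binds fibrillin microfibrils, rose by 3.56 on day 4 (adjusted p = 2.9e-09) in SN and changed by -0.32 in DRG, not called. Of 15 other matrix glycoproteins (median -0.15 to 0.1) 2, 4, 4 and 4 rose and 2, 1, 2 and 1 fell. Fbln1, fibulin-1, rose by 2.56 on day 7, Thbs1, thrombospondin-1, by 2.18 on day 1, and Spp1, osteopontin, fell by 2.08 on day 14.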

How the data were processed

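Total RNA of each sample was amplified, labelled with Cy3 and hybridised to a single-colour Agilent rat array. The authors deposited Agilent Feature Extraction output (version 10.5.1.1 per the file headers), whose processed intensity is background-subtracted, and a table of log2 values normalized by the authors in GeneSpring GX, which was used as an alternative only. That table has a median of 7.75 in every column, and its correlation with the log2 scanner signal of the same array was at least 0.9926. Its sorted columns differ by at most 0.003, as after quantile normalization, though its exact scaling is not given in the sources used here. The authors' values are therefore close to the quantile alternatives and no separate check of them. No column was left unmapped.

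Processed intensity was put on the log2 scale and each array's 75th percentile was subtracted. Control spots and outlier-flagged spots were left out and spots of a probe averaged (45018 spots, 43379 of them not controls, 41012 probes). A probe was well above background on an array where at least 50% of its spots were marked so. Changes were tested with limma 3.58.1 (R 4.3.3; lmFit and eBayes) over the 15 arrays of a tissue, and the difference between tissues and the 0 d contrast over all 30, with Benjamini-Hochberg adjustment over all tested probes, and the procedure was tested on simulated data. The difference between tissues was called on the adjusted p alone. For a probe dim in a whole group, folds are bounds ("at least"), taken against the lowest signal well above background. Slides (8) and scan dates (3) were tried as blocks. Samples were grouped by the tissue and day in their labels. Arrays of different days with the same replicate number did not deviate together (median r -0.05 in SN and -0.06 in DRG). For SN and DRG arrays of 1 day, the median r was 0.03 with the same number, and 4 of 15 pairs were above 0.1. With different numbers it was -0.04, and 6 of 30 pairs were above 0.1. No pairing was used. Array depth shows in the share of probes well above background, 65.69% to 86.74%.

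Members, marker lists and pathway lists were chosen with earlier results of these data known. Values on every array were given for preset genes (19 of 21 were on the array) and for the 3 genes with the largest called rise and fall in each tissue with both groups above background and no overlap of arrays; Col4a5, Col18a1 and Col6a3 were added after their values were seen. Alternatives were the background correction, scaling, filter, fold threshold, test, arrays in the fit, probe, blocks and each array left out. Python 3.11.15 and pandas 2.3.3 were used for tables and matplotlib 3.10.9 for figures. Names came from the scanner files, probe positions (rn4) from the same files and promoters from RefSeq. The values of 1 gene of the pathway lists are not reported here.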

Additional observations from a re-analysis of the deposited data

Results flagged for a closer look

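Member probes whose change against 0 d differed between SN and DRG, by the test of that difference in limma at an adjusted p under 0.05, numbered 47 of 86 on day 1, then 44 (day 4), 41 (day 7) and 39 (day 14). The SN change was above that of DRG for 15.9%, 20.1%, 17.6% and 12.9% of all 33806 probes and below it for 19.7%, 25.2%, 20.4% and 19.4%. At 1 d the SN change was the lower for 38 of the 47 and at 14 d for 22 of the 39, a split that turned with quantile normalization (23 above and 20 below), the authors' values (22 and 20) and normexp with quantile normalization (21 and 19). With slide as a fixed block the counts at 1 d and 14 d were lower, but rest on DRG 0 d replicate 1 alone among the DRG arrays of day 0.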

How the results depend on the processing

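The alternatives were run by gene for 25 genes, which leaves out Col4a5, Col18a1, Col6a3 and Lama1 of those given by array. Of the 25 genes' 42 called changes, 29 stayed called in the same direction under every alternative of scaling, filter, test, arrays and block, and 13 were lost under 1 or more; beside these 42 called changes, 8 values from another probe of the gene had the opposite sign, namely Col2a1 in SN at 4 d (0.016) and 14 d (0.17) and in DRG at 7 d (0.25) and 14 d (0.46), Lamb3 in SN at 4 d (-0.17) and 7 d (-0.31), and Nid1 in DRG at 14 d (0.15 and 0.051). The cause was not tested. Counts of called member probes moved beyond 1.5 times as follows. Normexp with quantile normalization gave 11 and 16 in SN at 1 and 4 d, 6 for 4 d against 1 d, 2 for 14 d against 7 d, and 0, 1, 1 and 6 in DRG at 1, 4, 7 and 14 d. Quantile normalization and the authors' values each gave 2 for 7 d against 4 d and 2 in DRG at 4 d, and median scaling gave 8 and 5 in DRG at 4 and 7 d. A stricter filter gave 2 in DRG at 1 d. With only the 6 arrays compared, 7 d against 4 d had 0, 14 d against 7 d 3 and DRG at 4 d 2. Slide as a random block gave 0 for 7 d against 4 d and 1 for 14 d against 7 d. The methods' t-test gave 0 for 7 d against 4 d unadjusted, and after adjustment 0 there, 0 for 14 d against 7 d and 0 in DRG at 4 d. A fold above 1.5 gave 61, 48, 50 and 40 in SN, 24, 11 and 9 for the successive days and 12, 19, 10 and 18 in DRG. Slide as a fixed block gave fewer for the difference between tissues at 1 and 14 d, resting on DRG 0 d replicate 1 alone among the DRG arrays of day 0. Without DRG 0 d replicates 2 and 3, chosen after seeing the data, DRG had 7, 12 and 10 at 1, 4 and 7 d, with 1 array left at 0 d that is assumed to vary like the other groups.

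Leaving out 1 array at a time gave 2 to 8 in DRG at 4 d (8 without DRG 4 d replicate 1), 3 to 6 at 7 d (6 without 0 d replicate 2 or 3) and 5 to 12 at 14 d (5 without 14 d replicate 1), and in SN 9 to 17 for 4 d against 1 d (17 without 4 d replicate 1), 0 to 2 for 7 d against 4 d and 1 to 6 for 14 d against 7 d. Elsewhere it gave 23 to 29, 24 to 32, 24 to 29 and 22 to 26 in SN, 3 to 6 in DRG at 1 d and 64 to 66 between tissues at 0 d. With the replicate block the totals were 26, 30, 26 and 26 in SN and 4, 3, 4 and 11 in DRG. The check found no pairing by replicate number, and the labels do not say which rats an array holds. Scan date as a random block could not be estimated in SN, where each day lies within 1 scan date, and was not run there. Probes near background carry only bounds, and 3 arrays a group limit every call.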
